A study of Homo sapiens with 2 samples.

Results

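The genes described here are 41 parts of the kinetochore, of the spindle checkpoint that it carries and of the complexes that work beside it, of 36601 genes counted. They were chosen by symbol, from what their proteins are known to do, and each symbol was found once. They held 288173 of the 284543094 gene UMIs (unique molecular identifiers, which count captured RNA molecules) of the cells analysed. The series is 1 pool of heart muscle cells grown from H9, a human embryonic stem cell line, and carrying the fluorescent calcium reporter gCaMP6f. The cells were taken at day 15 of differentiation, frozen, thawed, marked with hashtag antibodies and captured together in droplets. All cells share that line, reporter and day, and the labels do not say what any of the 13 hashtags marked. The groups of cells compared below therefore lie within 1 pool, no comparison has replicates and no p-value is given.

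A kinetochore is the protein plate that joins a chromosome to the fibres of the spindle. CENP-A, a histone variant, marks the centromere, an inner layer called the constitutive centromere-associated network is built on it, and an outer layer made of KNL1 and the MIS12 and NDC80 complexes grips microtubules. The spindle checkpoint holds back anaphase while a kinetochore is unattached, and the chromosomal passenger complex, which carries the kinase Aurora B, corrects faulty attachments. Heart muscle cells largely stop dividing around birth, while those made from stem cells are immature and part of them still divide.

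After filters, 20634 cells remained, with a median of 11991 UMIs. Clustering without the 41 genes, other named kinetochore genes and the cell cycle index genes described below gave 15877 cardiomyocyte-like cells. Further cell cycle genes were not taken out. In their 8 clusters the summed level of 12 cardiomyocyte markers was 40165 to 62044 CPM (the field's scaling of a count by all gene UMIs of the group), against 4014 to 16205 CPM in clusters given other names. The rule that named the clusters used this same sum, set against that of the highest cluster, so their separation follows in part from it. The presence of cardiomyocyte transcripts in cells of other classes shows the level that free RNA, doublets or true expression can give there, and these were not separated. The gene and hashtag libraries were deposited as 1 matrix with the same barcodes.

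Dividing cells were picked with genes that are not among the 41. Each cell was thinned to 3000 UMIs, and a cell with at least 3 of 34 G2M index genes was called a G2M cell. A cell with at least 3 of 34 S index genes and under 3 G2M index genes was called an S cell, and a cell with at most 1 G2M and under 3 S index genes was called non-cycling. Of 15495 cardiomyocyte-like cells that reached 3000 UMIs, 2387 were G2M cells (15.4%, 14.8 to 16), 1210 were S cells, 10450 were non-cycling and 1448 fell in no group. Intervals are exact throughout, hold at 95% and count only the sampling of UMIs or cells. The G2M class is a range of a score: 1769 cells had 2 index genes, 624 had 3, 276 had 4 and 1003 had 8 or more. Without thinning, 52.9% of the same cells had at least 3. The index genes differed between the groups, with MKI67, a proliferation marker, at 117 CPM in G2M and 2.10 CPM in non-cycling cells, and MCM2, a replication gene, at 29.3 and 5.72 CPM. These values follow from the rule that picked the cells.

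Which kinetochore and checkpoint genes were higher in dividing heart muscle cells? Of the 41 genes, 35 were at least 2-fold higher in G2M than in non-cycling cardiomyocytes and 0 were at least 2-fold lower, where 3.79% of 17298 measured genes were higher and 1.56% lower. The median ratio over the 41 genes was 14.0, beside 0.974 over all measured genes. Their summed level was 2497 CPM (2484 to 2511) in G2M cells, 878 CPM in S cells and 429 CPM in non-cycling cells, and the ratio of the first to the last was 5.82 (5.76 to 5.88). Roles differed in the ratio of their sums: 25.4 for the chromosomal passenger complex, 20.4 for the corona and motors, 7.83 for CENP-A and its loading factors, 6.84 for the checkpoint, 3.89 for the inner and 3.17 for the outer kinetochore. A sum is set mostly by its most abundant genes, and by the median ratio over single genes the order differed: 40.8 for CENP-A and its loading factors, 31.7 for the passenger complex, 17.0 for the checkpoint, 15.9 for the outer kinetochore, 14.7 for the corona and motors and 7.77 for the inner kinetochore.

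**Figure D1:**
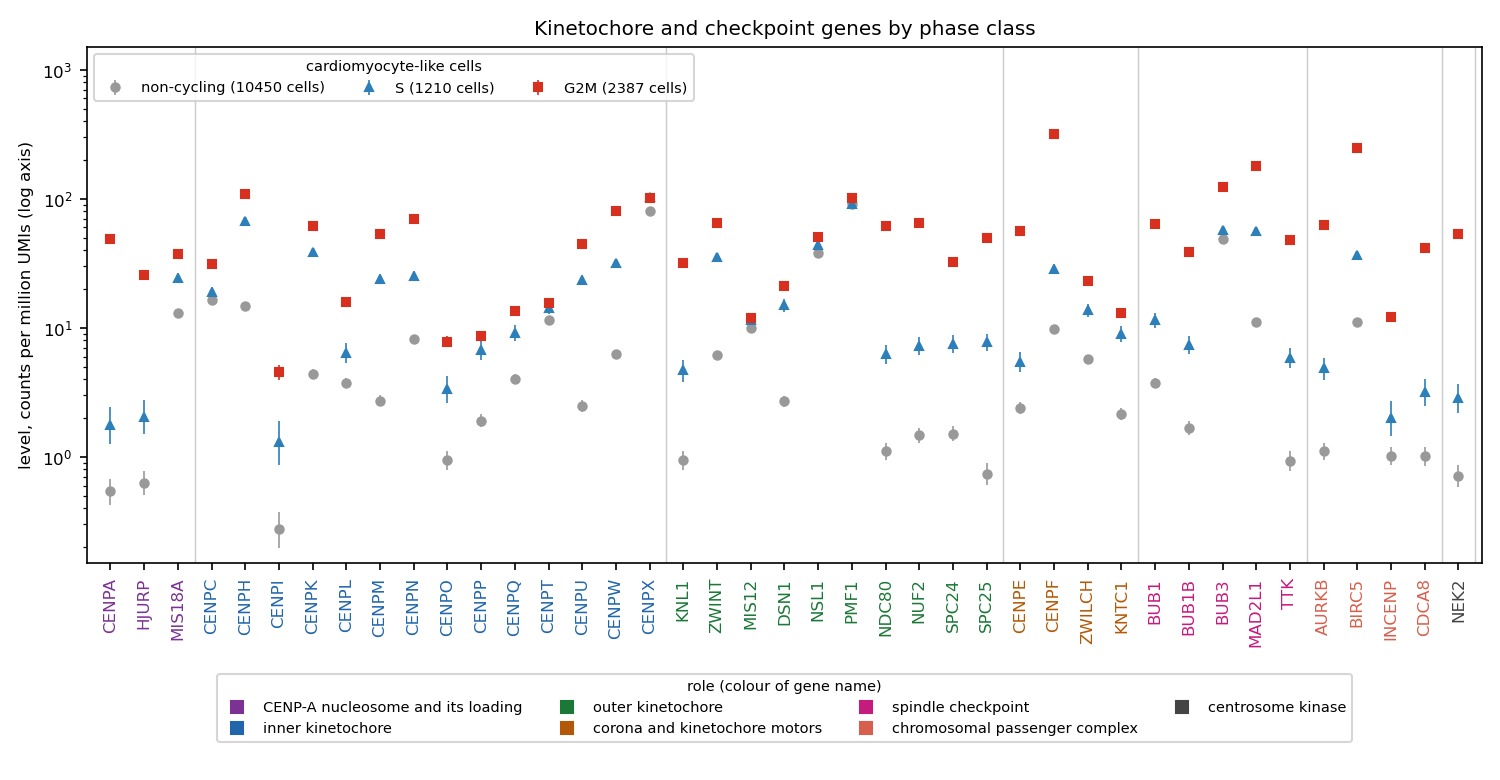
Level of each of the 41 genes (CPM, log axis) in non-cycling, S and G2M cardiomyocytes, ordered by role; points are sums over all cells of a group and bars are 95% Poisson intervals. CENPX, MIS12, NSL1 and PMF1 differ by at most 1.32-fold between G2M and non-cycling cells, while CENPA goes from 0.541 CPM in non-cycling to 48.9 CPM in G2M cells.

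The 3 genes of CENP-A and its loading were all at least 2-fold higher. CENPA itself had 48.9 CPM in G2M, 1.78 CPM in S and 0.541 CPM in non-cycling cardiomyocytes, a G2M to non-cycling ratio of 90.5 (72.3 to 115), the highest of the 41. HJURP, the chaperone that carries CENP-A to the centromere, had 25.7, 2.06 and 0.631 CPM in the same order. MIS18A, part of the complex that licenses the site for loading, had 37.3, 24.3 and 13.1 CPM, a ratio of 2.84. MIS18A was thus the 1 gene of this list whose level in non-cycling cells was within 3-fold of its level in G2M cells.

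In the inner kinetochore 11 of 14 genes were at least 2-fold higher, with a median ratio of 7.77. CENPH, which forms a part of the network with CENPI, CENPK and CENPM, had 108 CPM in G2M, 66.8 in S and 14.9 in non-cycling cells (ratio 7.26, 6.91 to 7.64). CENPX, which also serves in DNA repair, had 102, 104 and 81.1 CPM (1.26, 1.22 to 1.30). CENPW, the histone-fold partner of CENPT, had 80.4, 31.7 and 6.24 CPM (12.9, 12 to 13.9). CENPT had 15.7, 14.3 and 11.6 CPM, a ratio of 1.36, so the 2 partners differed in how far their levels were apart between the groups. CENPM, of the part with CENPH, had the largest ratio of the inner genes at 19.6, followed by CENPU at 17.9. CENPC, which binds the CENP-A nucleosome, was at 1.90, just under the 2-fold line, and CENPX and CENPT were the other inner genes under it. CENPQ at 3.33 was nearest above the line within this layer.

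In the outer kinetochore 7 of 10 genes were at least 2-fold higher, and the complexes split. The 4 subunits of the NDC80 complex, the microtubule grip, had ratios of 67.2 for SPC25 (55.3 to 82.3), 55.4 for NDC80 (47.2 to 65.3), 44.4 for NUF2 and 21.2 for SPC24. KNL1, the platform for the checkpoint kinases, had 33.7, and ZWINT, its partner, 10.7. Of the 4 subunits of the MIS12 complex, which links the outer to the inner layer, DSN1 had 21.0 CPM in G2M and 2.70 CPM in non-cycling cells (7.78). The other 3 were within 2-fold: PMF1 had 101 CPM in G2M, 91.6 in S and 91.8 in non-cycling cells (1.10, 1.07 to 1.14, the lowest of the 41), NSL1 had 50.7, 43.9 and 38.3 CPM (1.32), and MIS12 had 11.8, 11.4 and 10.0 CPM (1.18, 1.07 to 1.29). The NDC80 subunits were thus all 21.2-fold or more apart between the groups and these 3 MIS12 subunits 1.32-fold or less.

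All 4 corona and motor genes were at least 2-fold higher. CENPF, a large farnesylated protein of the corona, had 317 CPM in G2M, 28.8 CPM in S and 9.77 CPM in non-cycling cells (32.4, 30.7 to 34.2). CENPE, the kinesin that moves chromosomes to the equator, had 56.4, 5.47 and 2.40 CPM (23.5). ZWILCH and KNTC1, both of the complex that brings dynein to kinetochores, had smaller ratios of 4.03 and 6.0.

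All 5 checkpoint genes were at least 2-fold higher as well. MAD2L1, whose protein MAD2 blocks the anaphase activator CDC20, had 178 CPM in G2M, 56.6 in S and 11.2 in non-cycling cells (15.9, 15.1 to 16.8). BUB3, which docks BUB1 and BUBR1 on KNL1, had 123, 57.4 and 48.5 CPM (2.53), the smallest ratio of the checkpoint list. The kinase BUB1 had 64.1, 11.5 and 3.77 CPM (17.0). TTK, the kinase that starts the signal, and BUB1B, which encodes BUBR1, had ratios of 50.9 and 23.0.

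Of the chromosomal passenger genes, BIRC5 (survivin) had 246 CPM in G2M, 37.0 in S and 11.2 in non-cycling cells (22.1, 21.0 to 23.3). AURKB, the kinase itself, had 62.7, 4.87 and 1.11 CPM (56.6). CDCA8 (borealin) had 41.8, 3.18 and 1.01 CPM (41.3), and INCENP, the scaffold that activates the kinase, had 12.2, 2.01 and 1.02 CPM (11.9). NEK2, a kinase of the centrosome and kinetochore, had 53.2, 2.85 and 0.714 CPM, and its ratio of 74.5 (61.2 to 91.6) was second to that of CENPA. The median ratio of the 4 passenger genes was 31.7.

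Of 23 other kinetochore, centromere and checkpoint genes outside the 41, 17 were at least 2-fold higher and 0 lower, with a median ratio of 3.62. The 4 with the largest ratios were KIF2C (60.9), which depolymerises microtubules, the kinase PLK1 (57.6), the anaphase activator CDC20 (51.7) and SKA1 (40.8), of a complex that couples kinetochores to shrinking microtubules.

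Cells of the 2 sides sat in different clusters. Of the G2M cells, 56.3% were in 1 cluster, led by TOP2A, UBE2C and CCNA2, which held 8 non-cycling cells. There the 41 genes summed to 3461 CPM in 1344 G2M cells with a median of 10 index genes, against 918 to 1453 CPM in the G2M cells of the other 7 clusters, whose medians were 3 to 5. Within each of the 8 clusters the ratio of the sums was 2.13 to 3.11, below the ratio of 5.82 over all. In the cluster led by metallothionein genes, the one where all 41 genes were measured, 32 of them were at least 2-fold higher, where 3.07% of 13939 measured genes were. Fewer were measured in the others: 4 of 8 passed the line in the cluster led by TOP2A. In the remaining clusters 8 of 17, 9 of 17, 15 of 25, 6 of 13, 2 of 8 and 0 of 2 measured genes did. The share of all genes was taken only in the cluster led by metallothionein genes, so the counts of the other clusters cannot be set against one. This split was made after the data had been seen.

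Other values moved with the groups. G2M cells were deeper, with medians of 18301 UMIs in G2M, 14798 in S and 12430 in non-cycling cardiomyocytes. Their cardiomyocyte markers summed to 41950 CPM against 47044 CPM in non-cycling cells, their 10 stromal markers, all detected, to 137 against 90.7 CPM, and their 7 pericyte markers to 1355 against 1198 CPM. Epicardial markers summed to 21.3 and 23.2 CPM, with MSLN at 0 in G2M cells, and pluripotent markers to 13.1 and 10.9 CPM, with ESRG at 0. The part of depth and of other cell types in the ratios was not tested. Of barcodes marked as doublets and removed, 23.0% met the G2M rule, against 17.1% of the cells kept.

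Stricter and looser G2M cells moved the ratios but not the calls of most genes. Over 12 other settings the ratio of CENPA was 60.9 to 176, that of NEK2 50.1 to 154 and that of CENPF 22.2 to 60.6, with the high end in cells given to a hashtag for NEK2 and in G2M cells with at least 8 index genes for the others. CENPC reached 2.27 in cells given to a hashtag, 2.24 with at least 5 and 2.69 with at least 8 index genes. MIS18A fell to 1.99 in G2M cells with under 3 S index genes.

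How many of the 41 genes were seen in the same cell? After thinning, G2M cardiomyocytes held UMIs of a median of 5 of the 41 genes (quartiles 3 and 8, at most 19), S cells of 2 and non-cycling cells of 1. At least 10 of the genes were seen in 394 G2M cells (16.5%) and in 0 of 10450 non-cycling cells, and 99 G2M cells (4.15%) held none. Unthinned medians were 20, 7 and 4 genes. The counts overlapped between the groups, since non-cycling cells reached 7 genes.

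**Figure D2:**
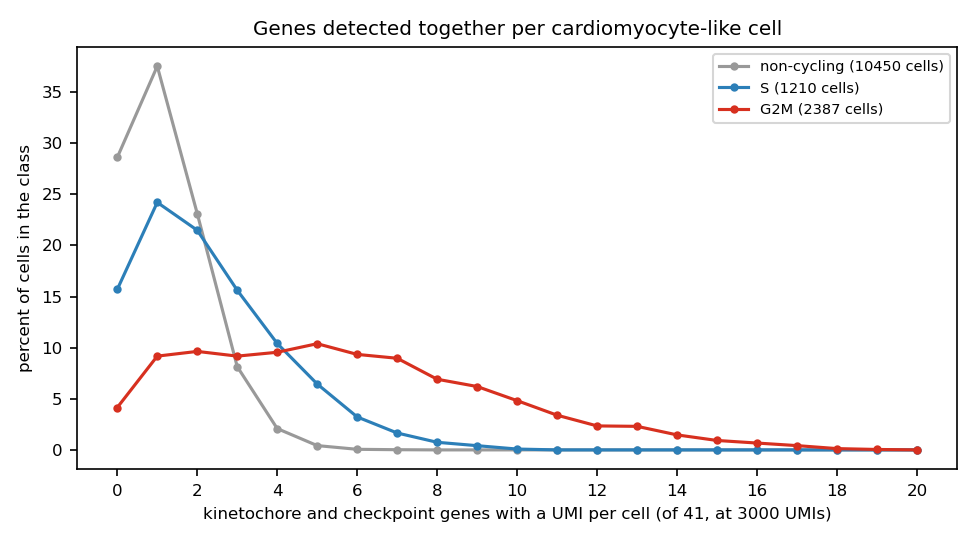
Number of the 41 genes with a UMI per cardiomyocyte after thinning to 3000 UMIs (horizontal axis) against the percent of cells of the group (vertical axis), for non-cycling, S and G2M cells. Non-cycling cells reach 7 genes at most and G2M cells 19.

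Single genes were seen in few cells at this depth. BIRC5 had a UMI in 45.9% of G2M, 6.94% of S and 2.72% of non-cycling cells, CENPF in 44.0%, 5.87% and 2.81%, and MAD2L1 in 36.9%, 13.1% and 3.19%. PMF1 was in 26.3%, 25.5% and 24.8%, so its share barely differed between the groups. CENPA was in 11.0% of G2M and 0.16% of non-cycling cells, and the rarest gene in G2M cells, CENPI, was in 0.96%. Free RNA could also give UMIs in non-cycling cells, but its level was not measured and its part in these shares was not tested.

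Within G2M cardiomyocytes, 33 of the 41 genes were in at least 5% of thinned cells, which gave 528 pairs. The share of cells with both genes, divided by the product of the 2 single shares, had a median of 1.31, and 27.8% of the pairs reached 1.5. For pairs of 5466 other genes in the same range of shares the median was 1.01, and 1.16% reached 1.5. CENPA and NEK2 were the pair seen together most often for their levels, in 84 cells where the product of their shares gives 31.6 (ratio 2.66). HJURP and BUB1B followed at 2.44, and CENPE and NEK2 at 2.38.

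The partners named here were seen together above that product but were not the highest pairs, and other partners are not given. CENPA and its chaperone HJURP were both in 43 cells against 18.1 (2.37), BUB1 and BUB1B had 2.01, AURKB and CDCA8 1.96, and NDC80 and NUF2 1.90 (104 cells against 54.8). SPC24 and SPC25 had 1.55 and AURKB and BIRC5 1.36, beside the median of 1.31 over all 528 pairs. At the other end, CENPT and DSN1 were both in 4 cells against 7.46 (0.536), and CENPX and NEK2 in 48 against 74.3 (0.646). The ratios describe cells of 1 library that differ in phase and were not tested, and the median was 1.08 among G2M cells with at least 8 index genes and 1.81 with at least 2.

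At which stage of the cycle was each gene high? S cells had a lower level than G2M cells for 25 of the 41 genes by at least 2-fold and a higher one for 0, where 2.43% of 15240 genes were lower and 0.407% higher. The sum in S cells was 0.352 of that in G2M cells (0.346 to 0.357). By role, the ratio of sums was 0.605 for the inner kinetochore, 0.470 for the outer, 0.307 for the checkpoint, 0.252 for CENP-A and its loading, 0.139 for the corona and motors and 0.130 for the chromosomal passenger complex. All 5 checkpoint and all 4 passenger genes were among the 25, with 6 of 14 inner genes. CENPA had the lowest S to G2M ratio at 0.0363, then NEK2 at 0.0536 and CDCA8 at 0.0761. CENPX (1.02), MIS12 (0.965) and CENPT (0.908) had the highest.

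Against non-cycling cells, S cells had at least 2-fold higher levels for 30 of 40 measured genes and lower levels for 0, where 1.98% of measured genes were higher and 0.596% lower. CENPI had too few counts to be measured. SPC25 (10.4) and CENPU (9.43) had the largest ratios, with CENPM at 8.73 and CENPK at 8.73, both inner kinetochore genes. BUB3, at 1.18, and PMF1, at 0.998, were among the genes within 2-fold. Of the 23 other genes of the pathway, 9 were higher in S cells.

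Many G2M cells also carried S index genes, so the cells were put in 4 groups, a division made after the data had been seen: 10450 non-cycling, 1210 with S genes only, 1298 with both and 1089 with G2M genes only. Here "only" means under 3 index genes of the other set and does not mean none. Of the 41 genes, 38 had their highest level in cells with both, where 29.4% of 15290 genes did. CENPA, BIRC5 and NEK2 had it in cells with G2M genes only, where 21.0% of genes did. No gene of the 41 had it in cells with S genes only or in non-cycling cells, where 18.2% and 31.4% of genes did. A cut of 5 G2M index genes puts cells with at least 3 S and under 5 G2M index genes in the S only group (1551 cells). With this cut, 31 were highest in cells with both (30.2% of genes) and 9 in cells with G2M genes only (21.4%). CENPX alone was highest in the S only group (14.8%) and 0 in non-cycling cells (33.7%). CENPX had 109 CPM in that S only group and 107 CPM in cells with both, a gap for which no interval was taken. With the cut of 3 these were 104 and 111 CPM. BIRC5 had 246 CPM in cells with both and 247 CPM in cells with G2M genes only (ratio 1.01, 0.972 to 1.04), so its place was within counting error. NEK2 had 47.5 and 60.7 CPM (1.28, 1.18 to 1.38), and CENPA 46.6 and 52.0 CPM (1.12, 1.03 to 1.21).

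Cells with G2M genes only were also set against cells with S genes only. Of the 41 genes, 20 were at least 2-fold higher in the former (2.21% of measured genes) and 0 in the latter (1.18%). A ratio below 1 was found for 8 of the 41, but the share of all measured genes below 1 was not taken. The count of 8 therefore cannot be set against one. With the cut of 5, 23 were at least 2-fold higher in cells with G2M genes only (2.25%) and 0 in cells with S genes only (1.59%). CENPA had the highest ratio at 29.3 (21.2 to 41.6), followed by NEK2 at 21.3, CDCA8 at 12, CENPF at 10.7 and AURKB at 9.93. DSN1 had the lowest at 0.636 (0.532 to 0.758), with 15.0 CPM in S only, 29.6 in both and 9.51 in G2M only. CENPP, of the inner network, and KNTC1 had 0.670 each, and CENPK had 0.798, with 38.6, 85.6 and 30.8 CPM. The 5 lowest, with MIS12 at 0.791, were thus 2 genes of the MIS12 complex, 2 of the inner network and 1 of the corona list, and the 5 highest were CENPA, NEK2, 2 passenger genes and CENPF.

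**Figure D3:**
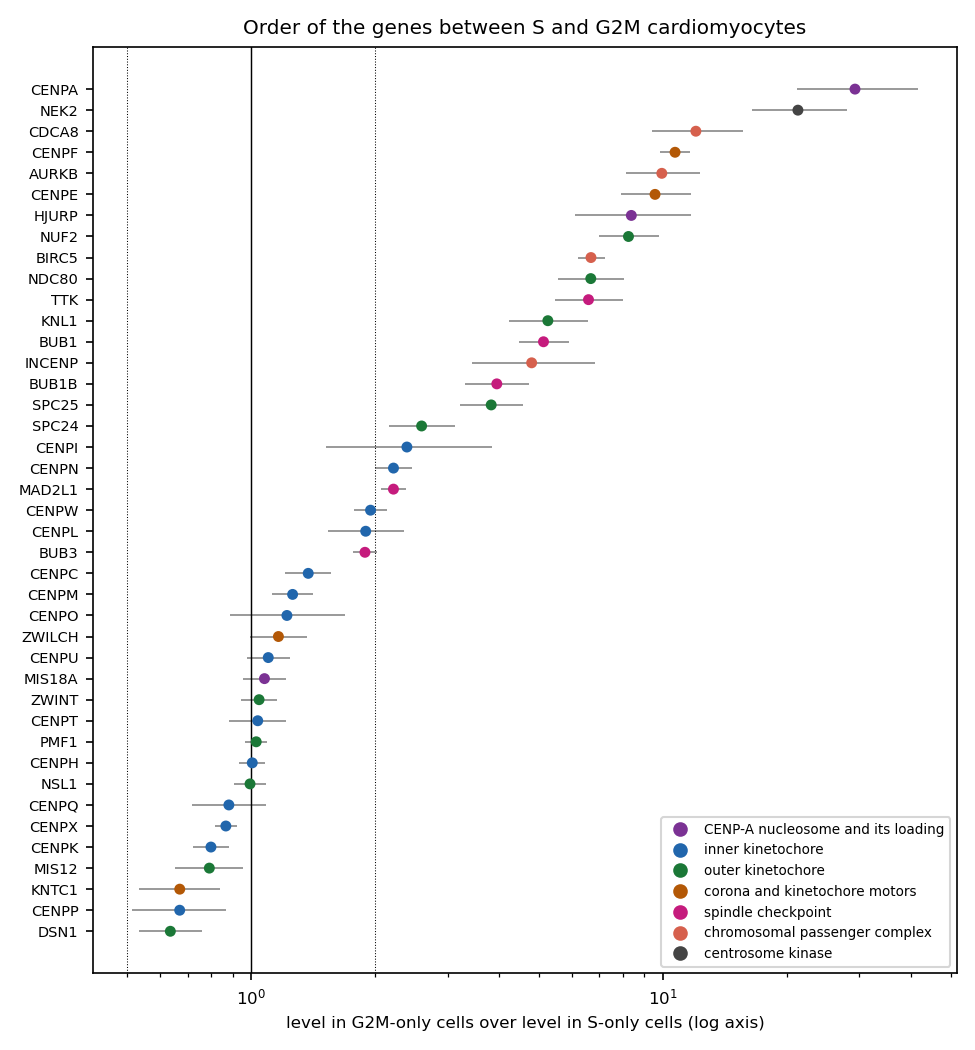
Ratio of the level in cardiomyocytes with G2M index genes only to that in cardiomyocytes with S index genes only, for each of the 41 genes (log axis, bars are 95% exact intervals, dots coloured by role, dotted lines at 0.5 and 2). Here "only" means under 3 index genes of the other set. CENPA lies highest at 29.3 and DSN1 lowest at 0.636.

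Promoter sequences at both ends of this order are printed here, because many genes of this stage are known to share short promoter words. The CHR (cell cycle genes homology region) and nearby CCAAT boxes are known from promoters of G2 and M genes, and E2F words from those of S phase genes. The windows are 300 bases, 250 before and 50 after the start, from RefSeq on GRCh38.p14, 5′ to 3′ on the gene's strand, and capitals mark matches. The words searched on both strands were TTTGAA and TTCGAA for the CHR, CCAAT for that box, and TTTCCCGC, TTTGGCGC, TTTCGCGC and TTTGCCGC for E2F, and matches may overlap. Of the genes that were at least 2-fold higher in G2M cells and have an entry, the 3 with the highest ratio are CENPA (chr2:26785806-26786105, plus strand), NEK2 (chr1:211675572-211675871, minus strand) and CDCA8 (chr1:37692266-37692565, plus strand):
CENPA: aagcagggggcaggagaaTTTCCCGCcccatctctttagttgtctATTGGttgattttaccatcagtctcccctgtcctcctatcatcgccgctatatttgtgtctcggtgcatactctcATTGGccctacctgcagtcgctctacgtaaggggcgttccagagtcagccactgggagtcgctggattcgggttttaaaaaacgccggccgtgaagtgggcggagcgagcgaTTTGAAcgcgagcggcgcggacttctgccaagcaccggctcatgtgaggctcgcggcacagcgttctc
NEK2: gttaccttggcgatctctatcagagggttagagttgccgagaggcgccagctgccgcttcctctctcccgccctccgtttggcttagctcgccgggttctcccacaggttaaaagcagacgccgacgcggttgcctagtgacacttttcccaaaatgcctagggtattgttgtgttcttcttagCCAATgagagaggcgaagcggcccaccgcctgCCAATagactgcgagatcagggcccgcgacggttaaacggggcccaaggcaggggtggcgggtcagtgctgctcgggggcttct
CDCA8: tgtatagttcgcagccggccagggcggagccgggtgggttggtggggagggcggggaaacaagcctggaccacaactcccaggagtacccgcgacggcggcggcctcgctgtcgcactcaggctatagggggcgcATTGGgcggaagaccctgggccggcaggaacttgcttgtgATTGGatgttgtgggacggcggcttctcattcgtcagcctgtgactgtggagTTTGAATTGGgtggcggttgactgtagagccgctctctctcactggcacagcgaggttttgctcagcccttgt
CENPA held a CHR word with its first base at -18 from the start, 2 CCAAT boxes and 1 E2F word. CDCA8 held a CHR word at -23 that overlaps a CCAAT box on the other strand at -18, and 2 more CCAAT boxes. NEK2 held 2 CCAAT boxes and none of the CHR or E2F words in this window.

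Among the same genes the 3 with the lowest ratio are DSN1 (chr20:36773714-36774013, minus strand), CENPP (chr9:92325218-92325517, plus strand) and CENPK (chr5:65563119-65563418, minus strand). PMF1 (chr1:156212757-156213056, plus strand), the gene whose level differed least between G2M and non-cycling cells, is added:
DSN1: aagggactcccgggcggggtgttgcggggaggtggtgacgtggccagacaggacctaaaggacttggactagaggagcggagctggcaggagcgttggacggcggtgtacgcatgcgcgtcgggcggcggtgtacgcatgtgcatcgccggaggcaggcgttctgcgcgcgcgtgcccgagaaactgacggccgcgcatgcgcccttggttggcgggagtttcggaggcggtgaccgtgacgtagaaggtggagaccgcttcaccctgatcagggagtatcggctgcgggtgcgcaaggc
CENPP: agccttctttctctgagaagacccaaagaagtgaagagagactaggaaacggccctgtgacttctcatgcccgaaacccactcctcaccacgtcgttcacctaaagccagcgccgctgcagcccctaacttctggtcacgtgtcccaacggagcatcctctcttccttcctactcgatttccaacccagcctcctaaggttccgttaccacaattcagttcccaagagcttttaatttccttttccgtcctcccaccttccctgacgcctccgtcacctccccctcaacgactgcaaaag
CENPK: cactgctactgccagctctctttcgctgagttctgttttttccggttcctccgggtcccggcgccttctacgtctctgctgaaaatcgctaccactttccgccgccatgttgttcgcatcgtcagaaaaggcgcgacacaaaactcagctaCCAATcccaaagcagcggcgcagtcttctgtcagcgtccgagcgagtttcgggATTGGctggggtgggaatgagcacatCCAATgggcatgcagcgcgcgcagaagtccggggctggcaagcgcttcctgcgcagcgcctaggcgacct
PMF1: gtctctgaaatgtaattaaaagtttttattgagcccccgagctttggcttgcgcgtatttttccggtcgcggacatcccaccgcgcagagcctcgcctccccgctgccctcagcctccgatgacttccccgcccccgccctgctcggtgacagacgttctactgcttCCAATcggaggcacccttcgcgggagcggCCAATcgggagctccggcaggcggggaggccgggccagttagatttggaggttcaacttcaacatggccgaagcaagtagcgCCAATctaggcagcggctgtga
DSN1 and CENPP held none of the words in these windows, and CENPK and PMF1 held 3 CCAAT boxes each.

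Over the 32 of 41 genes with an entry, a CHR word was in 16 (50.0%), against 16.6% of 27305 promoters. CCAAT was in 22 (68.8%, against 35.7%), E2F words were in 3 (9.38%, against 3.33%), and CHR and CCAAT together in 12 (37.5%, against 6.58%). Genes with a CHR word had a median G2M only to S only ratio of 4.37 and genes without one 1.03. Their median G2M to non-cycling ratios were 20.0 and 6.15, and 15 of 16 with and 11 of 16 without were at least 2-fold higher in G2M cells. For CCAAT the median G2M only to S only ratios were 2.21 with and 1.80 without. A match is a string of letters and no measured binding, and no test was made.

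Did dividing cells of other classes carry the same levels? G2M cells made up 19.2% of fibroblast or stromal-like cells (295 cells, 17.3 to 21.3), 39.5% of epithelial-like cells (293, 36.0 to 43.1), 44.5% of endoderm-like cells (149, 39.1 to 50.0), 13.8% of epicardial-like cells (34) and 15.4% of endothelial-like cells (10). Over whole classes, cycling or not, the 41 genes summed to 931 CPM in cardiomyocyte-like, 1307 in stromal-like, 1662 in endoderm-like and 1991 CPM in epithelial-like cells. In G2M cells alone the sums were 2497 CPM in cardiomyocyte-like, 2745 in endoderm-like, 3421 in epithelial-like and 3707 CPM in stromal-like cells. Epicardial-like and endothelial-like G2M cells had 2927 and 2065 CPM and were too few for a comparison gene by gene. The G2M groups also differed in their mix. At least 3 S index genes were held by 1298 of 2387 cardiomyocyte-like and 184 of 295 stromal-like G2M cells. In epithelial-like and endoderm-like G2M cells these were 220 of 293 and 109 of 149. The part of this mix in the levels was not tested.

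Against G2M cardiomyocytes, 5 of the 41 genes were at least 2-fold higher in stromal-like G2M cells and 0 lower, where 9.21% of measured genes were higher and 8.17% lower. INCENP had 34.2 against 12.2 CPM (2.81, 2.34 to 3.37) and CENPF 724 against 317 CPM (2.29, 2.20 to 2.38), with CENPQ at 2.15, CENPW at 2.05 and MIS18A at 2.00. The lowest were CENPP (0.797), CENPM (0.845) and CENPH (0.925). The median over the 41 genes was 1.53, beside 1.10 over all measured genes, and the ratio of the sums was 1.48 (1.46 to 1.51). The share of genes past 2-fold, 5 of 41, was close to that of all measured genes.

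Epithelial-like G2M cells had 5 of the 41 at least 2-fold higher and 0 lower, where 11.6% of measured genes were higher and 11.3% lower. INCENP had 33.7 CPM (2.77, 2.32 to 3.29), CENPQ a ratio of 2.50, CENPW 2.18, MIS18A 2.10 and CENPF 2.00, at 635 CPM. CENPM (0.603, 0.512 to 0.707), CENPP (0.784) and PMF1 (0.813) were the lowest, and the median was 1.33. All comparisons of classes share the cardiomyocyte side, so what they have in common is no separate result.

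In endoderm-like G2M cells no gene of the 41 passed the 2-fold line in either direction (0 and 0), where 7.72% of measured genes passed it upward and 8.97% downward. INCENP, at 1.96, had the highest ratio, before MIS18A (1.82) and KNTC1 (1.80). BUB1 had 34.6 against 64.1 CPM (0.540, 0.444 to 0.652), and SPC24 had 0.744 and CENPM 0.750. The median over the 41 genes was 1.09 and the ratio of the sums 1.10.

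**Figure D4:**
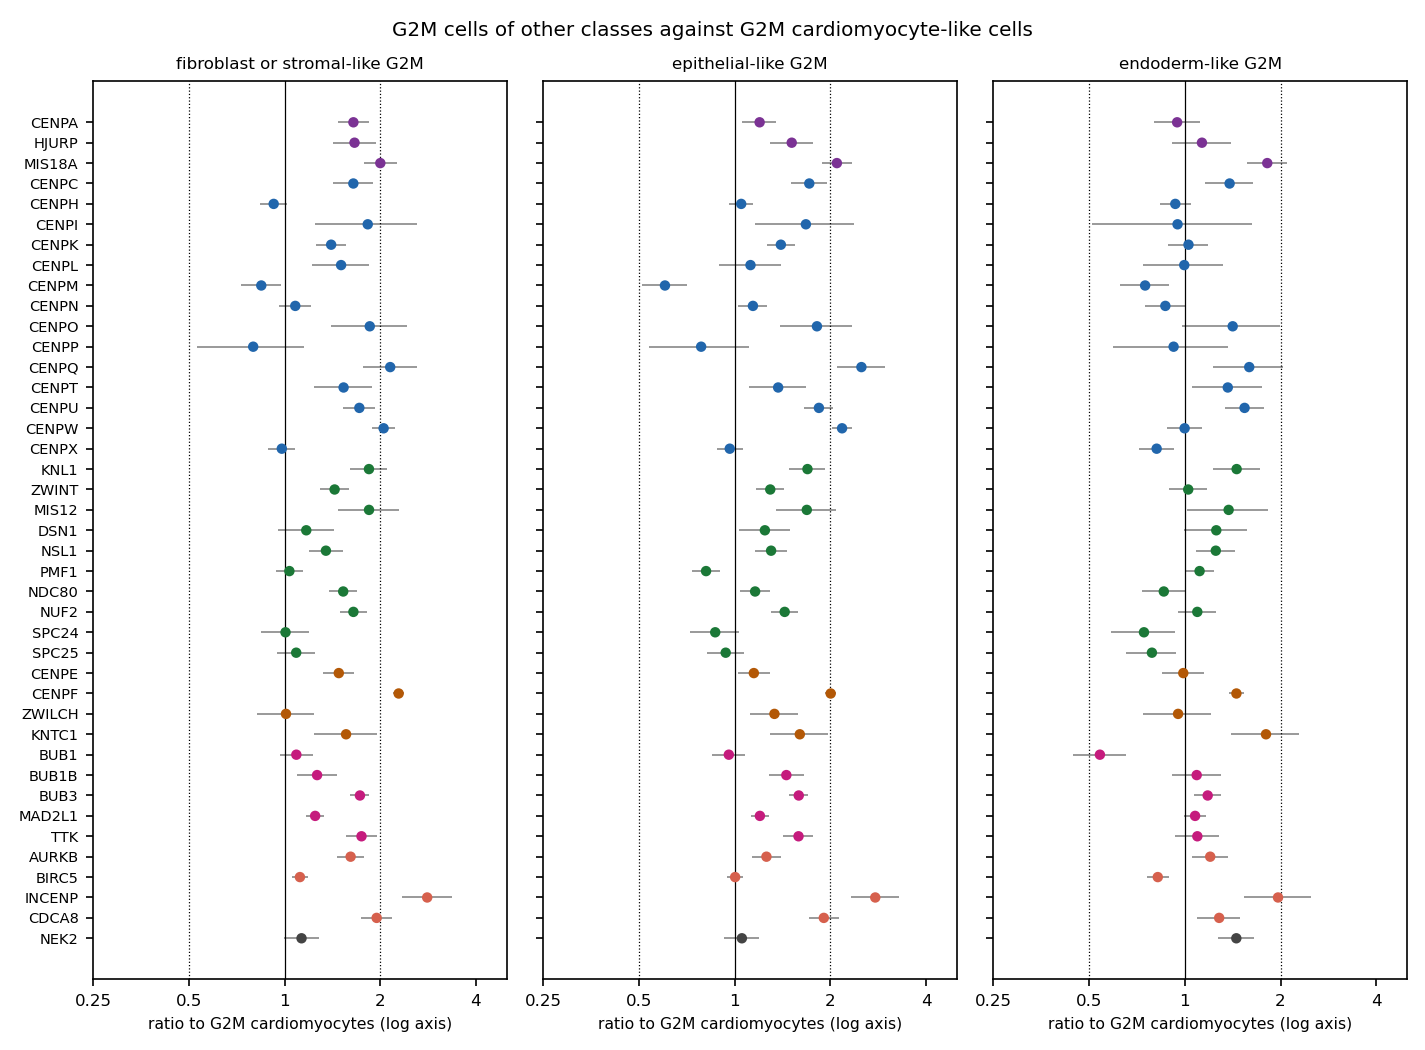
Ratio of the level in G2M cells of 3 other classes to that in G2M cardiomyocytes, for each of the 41 genes (log axis, bars are 95% exact intervals, dots coloured by role as in the plot of the order, dotted lines at 0.5 and 2). INCENP lies at 2.81, 2.77 and 1.96 and CENPM at 0.845, 0.603 and 0.750 in stromal-like, epithelial-like and endoderm-like cells.

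These calls turned on the scaling. TMM, a scaling meant to centre the bulk of genes between the sides, moved the median log2 ratio of all measured genes from positive to negative. It went from 0.14 to -0.16 in stromal-like, from 0.12 to -0.17 in epithelial-like and from 0.04 to -0.16 in endoderm-like cells. TMM thus did not centre the median gene here, and in endoderm-like cells that gene lay nearer to equal levels before this scaling. INCENP was then the 1 gene at least 2-fold higher in stromal-like cells, where 5.56% of measured genes were higher and 12.7% lower. In epithelial-like cells INCENP and CENPQ were higher and CENPM (0.493) lower, where 7.46% of measured genes were higher and 16.7% lower. In endoderm-like cells none of the 41 was higher and BUB1 (0.471) was lower, where 5.48% were higher and 12.4% lower. The summed ratio was then 1.20 in stromal-like and 1.12 in epithelial-like cells, and in endoderm-like cells it moved to the other side of 1, at 0.957. INCENP had ratios of 2.28 to 3.02 in stromal-like and 2.05 to 4.79 in epithelial-like cells over 12 other settings. Per UMI of the G2M index genes, the 41 genes had 1.14, 1.21 and 1.27 times the cardiomyocyte level in stromal-like, epithelial-like and endoderm-like cells. Cardiomyocyte markers summed to 8150, 4193 and 10897 CPM in these G2M cells, and their part in the ratios was not tested.

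Did the levels hold across hashtags? Of the cardiomyocyte-like cells, 7731 of 15877 (48.7%) could be given to 1 of 13 hashtags. Hashtags are unlabelled samples, so their values are listed with no test. The G2M share was lowest in hashtag 15 (10.9%, 8.82 to 13.2), had a median of 14.2% and was highest in hashtag 10 (27.9%, 23.7 to 32.5, 119 of 426 cells). Hashtag 1, at 21.8%, rested on 24 of 110 cells. Over all cardiomyocytes of a hashtag the 41 genes summed to 827 CPM in hashtag 6 at the lowest, 955 CPM at the median and 1393 CPM in hashtag 10.

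**Figure D5:**
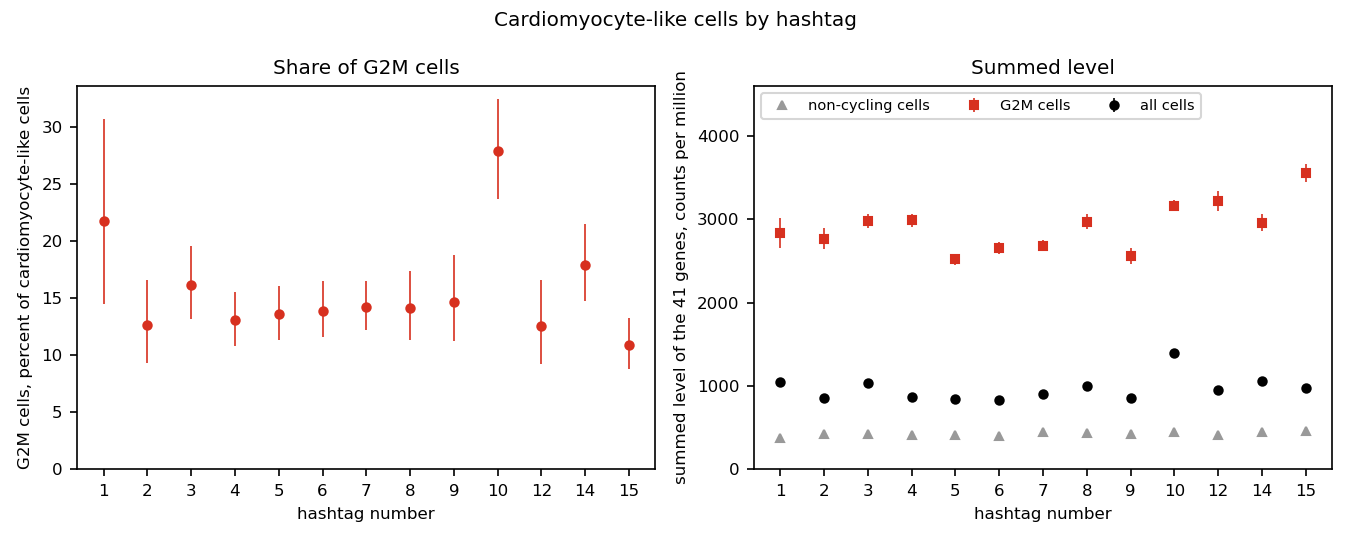
Left, percent of G2M cells among the cardiomyocytes of each of the 13 hashtags with 95% Clopper-Pearson intervals, and right, summed level of the 41 genes (CPM) in its G2M, its non-cycling and all its cardiomyocytes, with 95% Poisson intervals for the G2M cells and for all cells. G2M cells lie between 2517 and 3555 CPM and non-cycling cells between 378 and 451 CPM.

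In G2M cells alone the sums ranged from 2517 CPM in hashtag 5 over a median of 2959 to 3555 CPM in hashtag 15, and in non-cycling cells from 378 CPM in hashtag 1 over 420 to 451 CPM in hashtag 15. The 2 ranges do not overlap. Hashtag 10 thus had the highest level over all its cells, with 3165 CPM in its G2M cells, and hashtag 15, with the lowest G2M share, had the highest level within them. Hashtags 14 and 15 were also the shallowest, with medians of 8147 and 8363 UMIs per cardiomyocyte, where the median of hashtags was 13434, and the part of depth was not tested.

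Within each of the 13 hashtags, 33 of the 41 genes were at least 2-fold higher in G2M than in non-cycling cells, where 1.74% of 17298 genes were. CENPP and CENPQ were so in 12 hashtags, CENPC in 10, CENPT and MIS12 in 1, and CENPX, NSL1 and PMF1 in 0. The 17298 genes were those measured over all cardiomyocytes, and no minimum of counts was applied within a hashtag. A call in a hashtag can thus rest on few UMIs. Non-cycling cells of hashtag 1 held 273 UMIs of the 41 genes together, and CENPI had 40 UMIs in all non-cycling cardiomyocytes. In G2M cells CENPA ranged from 30.4 CPM in hashtag 7 over a median of 55.0 to 85.4 CPM in hashtag 15, NEK2 from 39.2 over 68.9 to 109 CPM, and CENPF from 330 over 408 to 549 CPM. BIRC5 ranged from 225 over 289 to 377 CPM and MAD2L1 from 142 over 193 to 264 CPM. PMF1 ranged from 86.6 over 108 to 118 CPM and CENPX from 75 over 96.6 to 121 CPM. Counting error was not set against these ranges. Hashtag 15 had the highest G2M level of CENPA, NEK2, CENPF and BIRC5, and hashtag 12 that of MAD2L1.

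G2M cardiomyocytes that could be given to a hashtag differed from the others. The 1116 given had 2888 CPM of the 41 genes and a median of 16535 UMIs, and the 1271 not given had 2250 CPM and 20312 UMIs. Both had a median of 6 index genes.

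The genes lie on many chromosomes: in GENCODE 29 on GRCh38, CENPA spans chr2:26764289-26801067, NEK2 chr1:211658657-211675630, CENPF chr1:214603195-214664588, PMF1 chr1:156212993-156240042 and INCENP chr11:62123973-62153163. Exons of CENPA overlap those of SLC35F6 on the same strand, and exons of 13 of the 41 genes overlap exons of a counted gene on the other strand. Whether counting used the strand is not given in the sources used here, so reads of these overlaps may be shared. Of the 13, CENPT, CENPX and MIS12 were within 2-fold between G2M and non-cycling cardiomyocytes. The rest were at least 2-fold higher in G2M cells: HJURP, CENPL, CENPN, CENPO, CENPP, CENPU, NUF2, SPC24, ZWILCH and MAD2L1. CENPC, NSL1 and PMF1, also within 2-fold, are not among the 13.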

How the data were processed

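RNA was measured in 1 pool of cells as a gene expression and a hashtag library, with no replicates. Raw counts (UMIs) of 24038 barcodes were deposited as a single matrix, made with Cell Ranger 4.0.0 per the file headers and with the genome build hg38 per the submitters' processing notes. Alignment, strand, annotation release and cell calling were not given in the sources used here. All 41 genes, all lists and the kinds of comparison were chosen with earlier results of these data known.

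Barcodes under 500 genes, under 1000 UMIs or over 25% mitochondrial UMIs were dropped (2415, leaving 21623). Scrublet (scanpy 1.11.5) marked 989 of them (4.57%, against an expected 19.2%), which were taken out. The 20634 cells left (1000 to 115854 UMIs each) therefore still hold doublets. Counts scaled to 10000 per cell and logged, with 2000 variable genes that held no kinetochore, index, mitochondrial or ribosomal gene, gave 30 principal components. A graph of 15 neighbours (umap-learn 0.5.12, scikit-learn 1.9.0) was clustered with leidenalg 0.10.2 at resolution 0.6. Clusters were named from marker lists of cardiomyocyte, stromal, pericyte, epicardial, endothelial, endoderm, epithelial, pluripotent, neural, immune and erythroid genes, and a low-depth cluster of 1658 cells was left unnamed and unused. Cells under 3000 UMIs (382 of the cardiomyocyte-like cells) were left out of phase groups.

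For each side, UMIs of its cells were added up and scaled to CPM of all their gene UMIs. A gene was measured when each side would hold at least 10 counts at the level of both together, and was called higher or lower from a ratio of 2. Intervals are exact (Poisson for levels, conditional binomial for ratios, Clopper-Pearson for shares, at 95%, scipy 1.17.1). A hashtag received a cell when it made up 70% or more of its hashtag UMIs, with 20 UMIs as the minimum. Named in full were up to 3 genes of each role with the most UMIs in G2M cardiomyocytes, and the 3 highest and 3 lowest ratios of each comparison. Further genes were named after their values were seen. On simulated data for G2M against non-cycling cardiomyocytes, all genes with true folds of 4, 8, 0.25 and 0.125 (49, 49, 50 and 50 genes) were called, and 0.408% of 17143 unchanged genes were; the simulation held no variation between cells, free RNA or doublets. Promoters matched 32 of the 41 symbols (first listed start); MIS18A, CENPH, CENPL, CENPM, KNL1, KNTC1, BUB3, TTK and BIRC5 had no entry. Alternatives were other filters, doublet rates, clustering, thinning, index cuts, thresholds and TMM scaling (edgeR 4.0.16, R 4.3.3).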

Additional observations from a re-analysis of the deposited data

How the results depend on the processing

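No gene called at 2-fold passed the line in the other direction under an alternative. The summed ratio in endoderm-like against cardiomyocyte G2M cells did cross 1: it was 1.10 as reported and 0.957 with TMM (0.957 to 1.24 over the alternatives), and the median log2 ratio of the 41 genes there went from 0.13 to -0.07 with TMM and -0.01 with at least 5 index genes. In G2M against non-cycling cardiomyocytes 34 to 36 of the 41 genes passed 2-fold upward and 0 downward, where 2.77% to 10.1% of measured genes were higher, with summed ratios of 4.36 to 8.80. In S against G2M cells 20 to 33 were lower and 0 higher, where 1.98% to 15.9% of measured genes were lower, with summed ratios of 0.300 to 0.429. Depth limits single genes: at 3000 UMIs most were seen in few cells, and groups of 149 to 295 cells leave wide intervals. The spread between cultures is unknown with 1 pool. Groups with fewer cells in a cluster measure fewer genes, and calls within a hashtag rest on fewer UMIs. The causes of the shifts below were not tested. Cuts of 8 index genes and G2M cells with under 3 S index genes were chosen after seeing the data.

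Shares of G2M cells moved with the rule that defines them. In cardiomyocyte-like cells the share was 26.8% with at least 2 index genes, 9.60% with 5 and 6.47% with 8, 22.6% when thinned to 5000 UMIs, 14.3% with doublets removed at the expected rate and 14.8% in cells given to a hashtag. In stromal-like cells it was 30.6%, 12.5% and 9.58% with 2, 5 and 8 index genes and 26.8% at 5000 UMIs. In epithelial-like cells it was 53.4%, 28.3%, 17.7% and 50.4% in the same order, and 44.6% in cells given to a hashtag. In endoderm-like cells it was 57.9%, 32.5%, 19.4% and 55.8%. In epicardial-like cells it was 24.4% with 2 and 8.13% with 8 index genes, 21.7% at 5000 UMIs and 9.52% in hashtagged cells. In endothelial-like cells it was 6.15% with 5 and 1.54% with 8.

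The median number of the 41 genes per G2M cardiomyocyte was 6 with doublets removed at the expected rate, at 5000 UMIs and in hashtagged cells, 3 with at least 2 index genes or under 3 S index genes, 7 with 5 and 8 with 8. The median pair ratio was 1.47 at 5000 UMIs, 1.81, 1.13 and 1.08 with 2, 5 and 8 index genes, and 1.63 with under 3 S index genes.

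Counts between classes were small and moved most, and the share of all measured genes past the same line moved too. In stromal-like cells 3 genes were higher with no doublet removal (8.48% of measured genes) and in hashtagged cells (7.97%), 2 with at least 8 index genes (7.43%), 1 with TMM (5.56%) and 22 at a threshold of 1.5 (22.5%). In epithelial-like cells 2 were higher with no doublet removal (8.86%), in hashtagged cells (11.4%), with TMM (7.46%) and with 8 index genes (9.12%), 8 with 2 index genes (12.5%), 3 with 5 (10.9%), 16 at a threshold of 1.5 (24.7%) and 15 with under 3 S index genes (8.55%). There 1 was lower with TMM (16.7%), at 1.5 (19.4%) and with 8 index genes (11.3%). In endoderm-like cells 2 were higher under the strict filter (9.53%), with doublets removed at the expected rate (10.9%) and with under 3 S index genes (3.49%), 1 with 2 index genes (7.45%) and 5 at 1.5 (18.4%). There 1 was lower in hashtagged cells (13.4%), with 5 index genes (8.42%), with TMM (12.4%) and at 1.5 (17.5%).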
